A study of Salmo salar with 9 samples.

Results

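The antigen processing machinery comprises the genes that cut peptides, carry them and load them onto the class I and class II molecules of the major histocompatibility complex. In head kidney of Atlantic salmon, a lymphoid and blood-forming organ of fish, it was measured as 54 contigs of 135823 in both references together. A contig was a member when its description held one of 10 gene names and its counts summed to at least 20 over the 9 fish. Of the members, 37 were among the 87600 contigs assembled de novo from the reads and 17 among the 48223 cDNA sequences of the NCBI reference, and another 39 contigs bore one of the names but had fewer than 20 counts. No contig was named proteasome subunit beta type-10, so 9 of the 10 genes had a member. The de novo descriptions named the beta-2 light chain only as "beta-2 microglobulin", which the rule did not find. This contig and a few others under alternative spellings were added after the files had been seen and are named as such.

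All 9 fish were farmed Salmo salar from 1 commercial farm, and 3 fish were sampled for each diet. FMC was the fishmeal-based control diet, SW1 the same type of feed with 10% Laminaria digitata and SW2 with 10% of the commercial seaweed blend Oceanfeed. Each diet was given for 42 days, after which every fish received E. coli lipopolysaccharide at 6 mg per kg into the body cavity and was dissected 68 to 70 h later. The controls carried the same injection and no fish without it was analysed here, so a diet effect cannot be told apart from a diet effect on the response to lipopolysaccharide. Each fish came from a tank of its own, so the 3 fish of a diet are separate animals and tanks.

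Background to the pathway is as follows. For class I, the proteasome cuts cytosolic proteins, the transporter TAP carries the peptides into the endoplasmic reticulum, the aminopeptidases ERAP1 and ERAP2 trim them in mammals, and tapasin holds the empty class I molecule at TAP until a peptide binds. Interferon-gamma replaces catalytic subunits of the standard proteasome with immunoproteasome subunits, among them PSMB8 and PSMB9. For class II, the gamma chain (invariant chain, CD74) blocks the groove and steers the molecule to endosomes, the thiol reductase GILT opens disulfide bonds of the antigen, and cathepsin S removes the gamma chain. In teleosts the class I genes and several of these processing genes are inherited close together, and in the RefSeq annotation Ssal_v3.1 psmb8b, psmb9a and tap2a lie near each other on chromosome ssa14.

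De novo libraries held 8259299 to 12228633 counts and NCBI libraries 2158027 to 3203677. On the first principal component of the de novo contigs, which held 35.6% of the variance, 2 fish were far from the rest, FMC fish 2 at 0.65 and SW1 fish 1 at 0.55, with the other 7 at -0.31 to -0.02. The summed level of the red blood cell markers, 12 de novo contigs covering 3 of 3 marker names, was 30396 CPM in FMC fish 2 and 7459 CPM in SW1 fish 1, against 2049 to 4129 CPM in the other fish. The macrophage and dendritic cell markers (24 contigs, 4 of 4 names) summed to 1335 to 2025 CPM in FMC, 1784 to 2528 CPM in SW1 and 2196 to 2576 CPM in SW2. The B cell markers (22 contigs, 2 of 4 names) summed to 330 to 552, 285 to 672 and 485 to 538 CPM. On the NCBI reference these 2 lists gave 3513 to 6215, 6406 to 7214 and 8159 to 9448 CPM (6 contigs, 3 of 4 names) and 201 to 355, 190 to 660 and 366 to 550 CPM (5 contigs, 1 of 4 names). There the macrophage and dendritic cell markers were higher in all SW1 than in all FMC fish, and higher still in all SW2 fish. The other marker lists overlapped between all diets on that reference. Interrenal markers (9 contigs, 2 of 2 names), from the steroid-producing cells of the head kidney, summed to 305 to 1361, 767 to 1344 and 1015 to 2239 CPM. Neutrophil markers (17 contigs, 3 of 3 names) summed to 8420 to 13523, 10401 to 11334 and 7198 to 9822 CPM. Kidney tubule markers (12 contigs, 2 of 3 names) summed to 99.9 to 307, 181 to 272 and 137 to 180 CPM. The T cell, thrombocyte and chromaffin cell markers overlapped between all diets. The part of these cell types in the results was not tested. In whole tissue, fewer cells of a type and less RNA per cell cannot be told apart. CPM here are counts relative to library size after scaling with TMM (trimmed mean of M values), and they are compared only between fish for the same contigs, since no contig lengths were used.

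Summed by protein name, no de novo member of the class I or class II machinery passed the test between diets. These sums are not whole genes. Beta-2-microglobulin and cathepsin S had no de novo member, and tapasin and PSMB9 were split over different names. Contigs of TAP1 and tapasin under other spellings were not part of the sums. When the counts of de novo contigs with the same protein name were summed, 13 member names were tested, and 0 of 13 had an adjusted p under 0.05 in edgeR's quasi-likelihood test (Benjamini-Hochberg over all names) in SW1 vs. FMC, SW2 vs. FMC or SW2 vs. SW1. The same test called 0.00337%, 0% and 0.00168% of all names in these comparisons. At an unadjusted p under 0.05, 0 of 13 members passed in any of them, against 1.69%, 6.07% and 6.21% of all names, and DESeq2 gave 0 of 13 at either threshold. The median log2 fold change of the 13 names was -0.02 in SW1 vs. FMC, 0.13 in SW2 vs. FMC and 0.08 in SW2 vs. SW1, beside 0.00, 0.01 and -0.02 over all names. SW1 vs. FMC and SW2 vs. FMC share the 3 FMC fish.

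**Figure D1:**
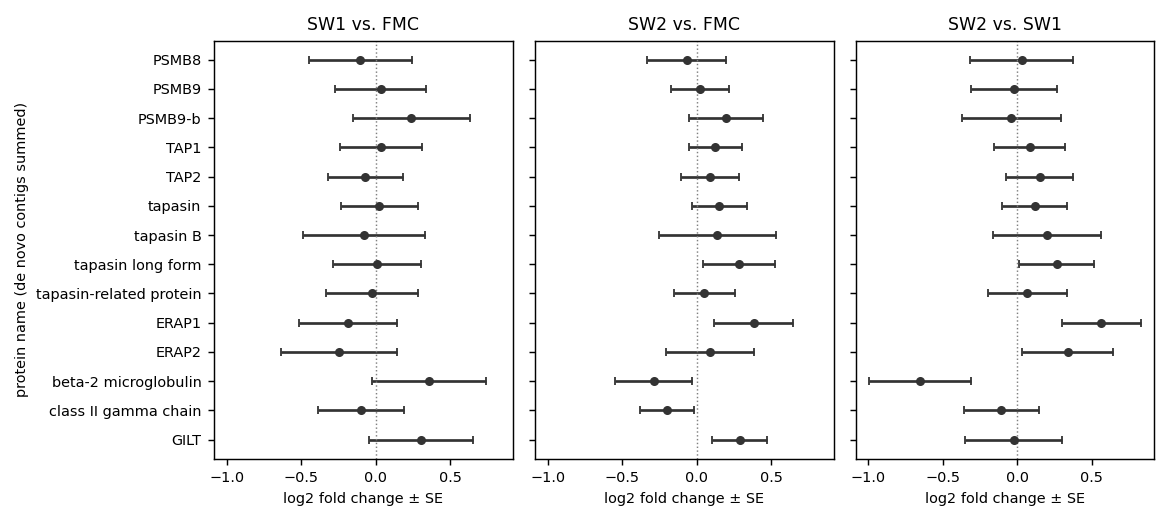
Fitted log2 fold change with its SE (horizontal bars) for the 13 member names and beta-2 microglobulin, de novo contigs summed by protein name, in the 3 comparisons with 3 fish per diet. The values lie between -0.65 for beta-2 microglobulin and 0.56 for ERAP1, both in SW2 vs. SW1, and no name had an adjusted p under 0.05.

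The immunoproteasome subunits were at about the same mean level on all diets, with larger SDs on each seaweed diet than on FMC. Over the 9 fish, the highest was 2.51 times the lowest for PSMB8 and 2.06 times for PSMB9. Over single de novo contigs with at least 200 counts the median was 2.31 times. PSMB8 (3 de novo contigs) was at 244, 176 and 244 CPM in FMC fish 1, 2 and 3, at 113, 269 and 244 CPM in SW1 and at 160, 285 and 165 CPM in SW2. The lowest value was in SW1 fish 1 and the highest in SW2 fish 2, and all 3 groups overlapped. The fitted log2 fold changes were -0.10 ± 0.35 (SE) in SW1 vs. FMC and, for SW2, -0.07 ± 0.26 (adjusted p = 1.00 and 0.98, edgeR). PSMB9 (5 contigs, of which 1 was described as PSMB9-b) was at 289, 280 and 309 CPM in FMC, 198, 408 and 315 CPM in SW1 and 251, 343 and 270 CPM in SW2. The FMC fish lay close together, whereas SW1 held both the lowest and the highest of the 9 fish. Means were 293 ± 14.9 (SD, n = 3), 307 ± 105 and 288 ± 48.7 CPM.

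Within the libraries, PSMB8 and PSMB9 were set against the standard catalytic subunits of the proteasome. The counts of PSMB8 and PSMB9 divided by those of PSMB5, PSMB6 and PSMB7 (11 contigs) gave 1.51, 2.10 and 1.72 in FMC, 1.92, 1.44 and 1.79 in SW1 and 1.27, 1.70 and 1.38 in SW2. The mean was lowest in SW2 (1.45 ± 0.22) but SW2 fish 2 lay within the range of the other diets. FMC fish 2 and SW1 fish 1 had the highest ratios, and they also had the lowest level of the standard subunit PSMB7, at 207 and 156 CPM against 299 to 454 CPM in the other 7 fish. The divisor was nearly all PSMB7, with FMC means of 283 CPM for PSMB7, 13.9 CPM for PSMB5 and 0.21 CPM for PSMB6. PSMB8 and PSMB9 take the places of PSMB5 and PSMB6, and PSMB7 gives way to PSMB10, which had no contig. The ratio therefore does not set each subunit against the one it replaces, and since it mixes contigs of unknown length it compares fish only. On the NCBI reference the 3 immunoproteasome contigs had few reads and the mean ratios were 0.046 in FMC, 0.076 in SW1 and 0.075 in SW2. The fish of all diets overlapped, at 0.019, 0.047 and 0.073 in FMC, 0.108, 0.066 and 0.055 in SW1 and 0.063, 0.070 and 0.092 in SW2. Among these contigs was a PSMB8 clone, given below, that met the member rule only through seaweed fish, so no diet effect is read from the means.

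PSMB8 counts were divided among contigs in a manner that differed from fish to fish. Contig 3078 carried 69.3%, 69.8% and 67.5% of the PSMB8 counts in FMC, 48.0%, 47.6% and 69.1% in SW1 and 51.5%, 70.04% and 55.9% in SW2. The fish fell at either 67.5% to 70.04% (all 3 FMC fish, SW1 fish 3 and SW2 fish 2) or 47.6% to 55.9% (the other 4), with no fish between. Contig 3674, described by the same protein, had 884, 455 and 702 counts in FMC, 838, 1052 and 857 in SW1 and 740, 791 and 710 in SW2, and contig 3078 had 2033, 1062 and 1470 counts in FMC, 793, 959 and 1939 in SW1 and 795, 1873 and 920 in SW2. In CPM, SW1 fish 1, SW2 fish 1 and SW2 fish 3 were the 3 lowest of the 9 fish for contig 3078 (54.4, 82.5 and 92.3 CPM), whereas SW1 fish 2 was the highest for contig 3674 (141 CPM). Over the 9 fish the log2 CPM of contig 3078 had a Pearson r of 0.90 with PSMB9 contig 7724 and of 0.33 with contig 3674, given as a description of points that share libraries and scaling. The main PSMB9 contig, 2568, was at 142, 131 and 142 CPM in FMC, 82.4, 202 and 155 CPM in SW1 and 117, 175 and 134 CPM in SW2. It followed contig 7724 (r = 0.91), and contigs 2567 and 27743 followed each other (r = 0.98). The PSMB9 contig 27742 did not share this order: it lay at 49.4 to 66.0 CPM in all 9 fish, was highest in SW1 fish 1, where contig 2568 was lowest, and had an r of -0.30 with contig 2568.

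**Figure D2:**
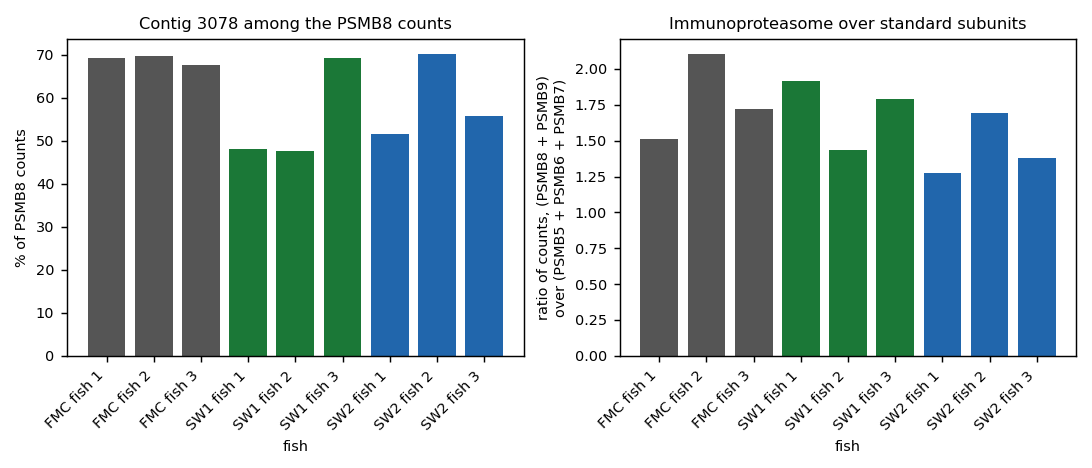
Left, percent of the PSMB8 counts on contig 3078 in each fish, and right, ratio of PSMB8 and PSMB9 counts to PSMB5, PSMB6 and PSMB7 counts in each fish, both de novo (grey FMC, green SW1, blue SW2; 1 bar per fish). On the left 5 fish stand at 67.5% to 70.04% and 4 fish, all on seaweed, at 47.6% to 55.9%.

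An NCBI contig described as a standard subunit, the PSMB6 clone ssal-evd-514-227, split the fish in the same way. It had 33, 32, 24 and 32 counts in SW1 fish 1, SW1 fish 2, SW2 fish 1 and SW2 fish 3, which are the 4 fish with the lower share of contig 3078, and 0 counts in the other 5. Its unadjusted p was 0.0098 in SW1 vs. FMC and 0.0096 in SW2 vs. FMC (adjusted p = 1.00 and 0.86, edgeR). With all FMC fish at 0, no fold change is given. The clone reached the minimum counts for listing and fitting only through seaweed fish, so no diet effect is read from these p-values. The match with the share of contig 3078 was noticed in the values and was not tested. Counts near 0 in some fish and clearly above 0 in others also occurred in the NCBI immunoproteasome contigs. The PSMB8 clone ssal-plnb-512-370 had 2, 0 and 0 counts in FMC, 14, 1 and 15 in SW1 and 0, 15 and 18 in SW2. For SW1 and SW2 vs. FMC its unadjusted p was 0.013 and 0.019 (adjusted p = 1.00 and 0.86, edgeR). This PSMB8 clone likewise met the minimum counts only through seaweed fish, so no diet effect is read from its p-values. The PSMB9 clone ssal-rgb2-654-046 had 6, 5 and 17 counts in FMC, 39, 35 and 17 in SW1 and 28, 15 and 35 in SW2, a log2 fold change of 1.502 ± 0.58 and 1.51 ± 0.53 vs. FMC (unadjusted p = 0.029 and 0.020, adjusted p = 1.00 and 0.86). FMC fish 3 lay within the range of the seaweed fish. An entry under the older name, low molecular mass protein 2 (LMP2, clone 2B4), had 58, 3 and 48 counts in FMC, 7, 1 and 1 in SW1 and 46, 63 and 0 in SW2. Its unadjusted p was 0.0035 in SW1 vs. FMC and 0.00997 in SW2 vs. SW1 (adjusted p = 1.00 and 0.79, edgeR). FMC fish 2 lay below SW1 fish 1. Clone 2B4 met the minimum counts of these fits only through FMC or SW2 fish, so no diet effect is read from its p-values. The other LMP2 entry, clone 2A14, had 17, 0 and 16 counts in FMC, 0, 0 and 14 in SW1 and 0, 11 and 20 in SW2. These entries may be near-identical copies or alleles, between which the authors' counting could split or drop reads, so the level of any 1 of them is uncertain.

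The transporter varied little among fish. TAP1, 1 of the 2 chains of the transporter, had 1 de novo contig under the member name (contig 4326), at 70.8, 68.9 and 64.5 CPM in FMC, 56.8, 88.2 and 67.2 CPM in SW1 and 71.8, 72.0 and 70.4 CPM in SW2. The SW2 fish lay inside the SW1 range, with an SD of 0.853 CPM. TAP2, the other chain (4 contigs), ranged from 45.7 to 58.4 CPM over all 9 fish, with means of 50.2 ± 1.74, 48.4 ± 3.03 and 51.3 ± 6.52 CPM in FMC, SW1 and SW2. The log2 fold changes of both chains lay between -0.07 and 0.15 in the 3 comparisons, with SEs of 0.18 to 0.27. A second TAP1 contig, 29328, described as transport-associated protein and added after the files had been seen, behaved differently. It had 152, 157 and 159 counts in FMC, 173, 167 and 203 in SW1 and 58, 53 and 124 in SW2. In CPM the SW2 fish lay below all FMC fish but not below all SW1 fish, with a log2 fold change of -1.01 ± 0.33 vs. FMC and -1.10 ± 0.35 vs. SW1 (unadjusted p = 0.00997 and 0.0083, adjusted p = 0.82 and 0.71, edgeR).

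Tapasin under its member names and the peptide-trimming enzymes differed more among fish than among diets. Tapasin (5 contigs under the names tapasin, tapasin B and tapasin long form) was at 71.7, 72.3 and 86.2 CPM in FMC, 73.9, 85.4 and 77.0 CPM in SW1 and 78.0, 84.6 and 84.5 CPM in SW2. The largest of them, contig 10655, ranged from 32.7 CPM in FMC fish 1 to 47.0 CPM in SW2 fish 3. The NCBI tapasin clone ssal-rgf-518-122 gave 66.1 to 83.0 CPM over the 9 fish. Contig 47570, described as TAP binding protein and added after the files had been seen, varied more, from 1.07 to 7.22 CPM. It had 42, 46 and 25 counts in FMC, 32, 11 and 24 in SW1 and 48, 10 and 72 in SW2. In CPM its SW1 fish lay below all FMC fish, and SW2 overlapped both other diets. The tapasin-related protein, known in mammals as a second peptide editor (TAPBPR), was at 148, 107 and 142 CPM in FMC, 89.7, 171 and 137 CPM in SW1 and 135, 141 and 121 CPM in SW2 (4 contigs). Diet means of the tapasin-related protein were 132 CPM on each diet, with SDs of 22.3, 40.6 and 10.6 CPM. Its main contig, 6937, was at 67.5, 54.3 and 70.2 CPM in FMC, 40.4, 75.9 and 65.9 CPM in SW1 and 63.1, 52.0 and 54.6 CPM in SW2. SW1 fish 1 was the lowest and SW1 fish 2 the highest of the 9 fish, as for PSMB9 contig 2568.

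ERAP1 (2 contigs) was at 118, 60.4 and 88.7 CPM in FMC, 56.8, 86.9 and 95.1 CPM in SW1 and 126, 117 and 94.3 CPM in SW2. Contig 12890 carried nearly all of these reads. SW2 overlapped both other diets, and the log2 fold change was 0.38 ± 0.27 in SW2 vs. FMC and 0.56 ± 0.26 in SW2 vs. SW1 (adjusted p = 0.88 and 0.80, edgeR). ERAP2 (6 contigs) was at 44.9, 21.0 and 46.2 CPM in FMC, 17.7, 39.3 and 39.0 CPM in SW1 and 44.3, 36.3 and 35.2 CPM in SW2. FMC fish 2 and SW1 fish 1 were the 2 lowest of the 9 fish for ERAP1, ERAP2 and the tapasin-related protein, and also for the standard subunits PSMB5 and PSMB7. Without these 2 fish, the log2 fold change of ERAP1 was 0.15 in SW2 vs. FMC and 0.37 in SW2 vs. SW1. With SW1 fish 1 alone left out and FMC fish 2 kept, that of ERAP2 in SW1 vs. FMC went from -0.25 to 0.038. With both left out, the ERAP2 levels were 44.9 and 46.2 CPM in FMC and 39.3 and 39.0 CPM in SW1. The chaperones that work beside tapasin were lowest in the same 2 fish: calreticulin, calnexin and protein disulfide-isomerase A3 (23 de novo contigs) summed to 940 and 887 CPM in FMC fish 2 and SW1 fish 1 and to 1819 to 2552 CPM in the other 7.

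**Figure D3:**
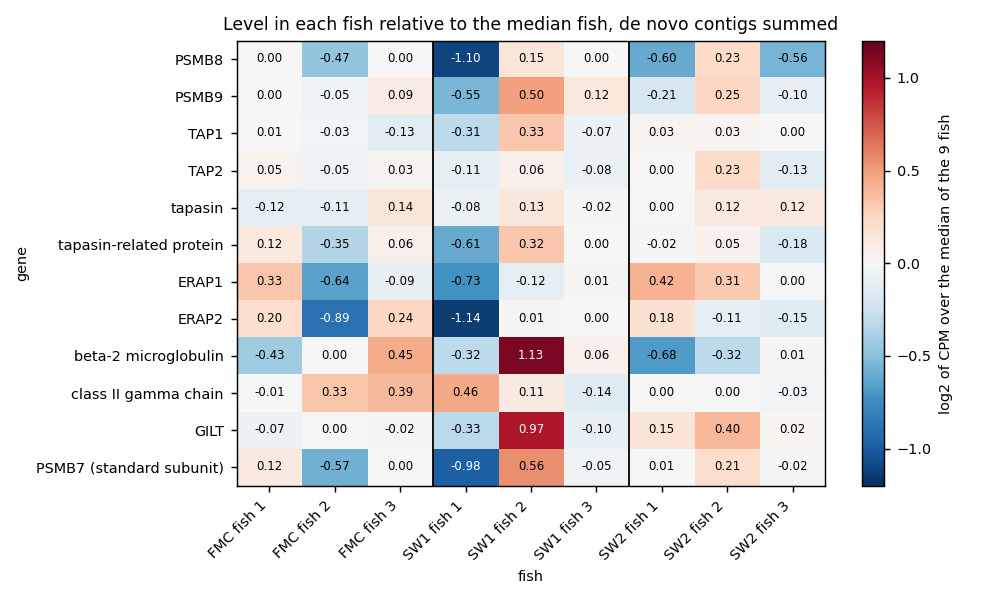
Log2 of the CPM of each gene in each fish over the median of the 9 fish (de novo contigs summed; blue below, red above the median; columns are fish, ordered by diet). FMC fish 2 and SW1 fish 1 are low for ERAP1, ERAP2, the tapasin-related protein and PSMB7, while TAP1, TAP2 and tapasin vary little.

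**Figure D4:**
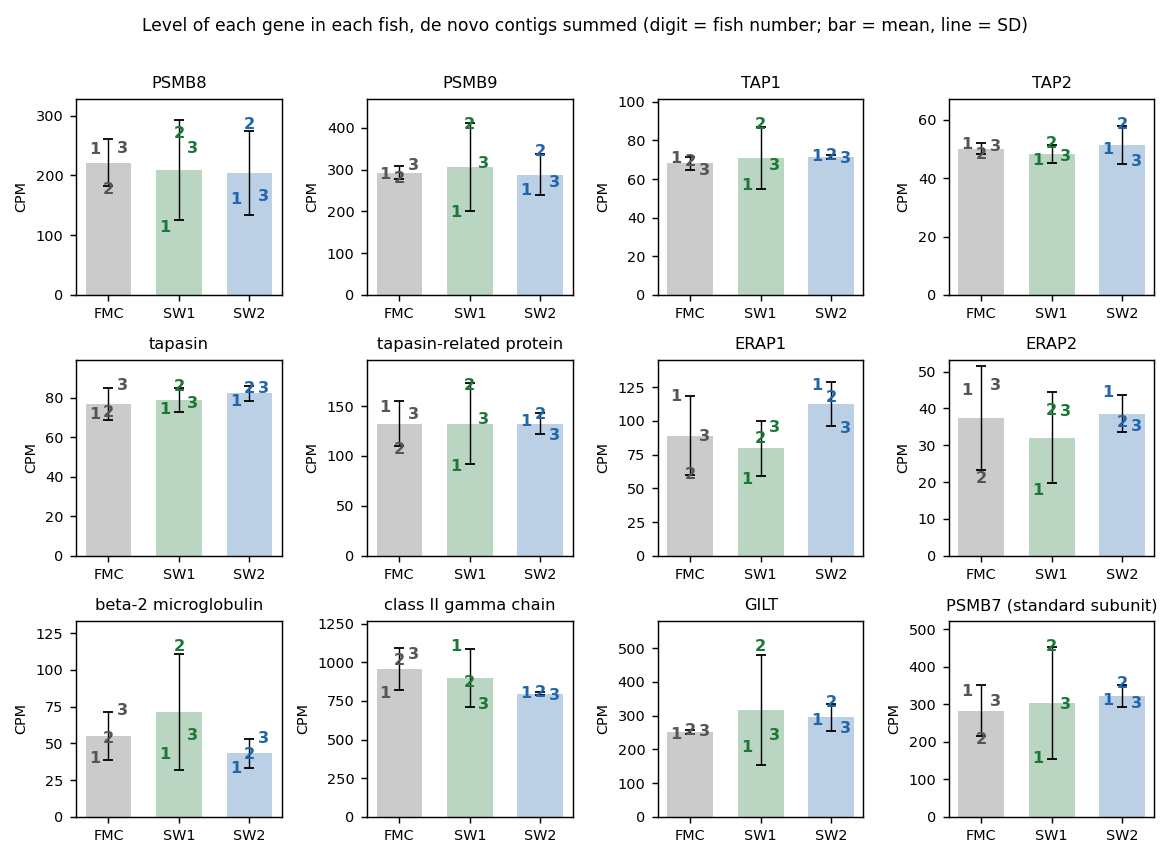
Level of each gene in CPM in each of the 9 fish (digits are the fish number within a diet, bars the mean and lines the SD of 3 fish; de novo contigs summed, axes from 0). The 3 diets overlap in every panel except GILT, where the SW2 fish (261 to 339 CPM) lie above the FMC fish (244 to 257 CPM). On the NCBI reference, not shown in this figure, the GILT levels of these 2 diets overlap.

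Beta-2-microglobulin, the light chain that every class I molecule needs, differed strongly between fish, and how depended on which clone was counted. In the de novo reference, the 1 contig under the other spelling (contig 2340) was at 39.5, 53.0 and 72.4 CPM in FMC, 42.6, 116 and 55.3 CPM in SW1 and 33.2, 42.5 and 53.6 CPM in SW2. Only SW1 fish 2 lay outside the FMC range on the upper side, and without it the log2 fold change of 0.36 ± 0.39 in SW1 vs. FMC became -0.16. In SW2 vs. SW1 it was -0.65 ± 0.34 (adjusted p = 0.83, edgeR). Without SW1 fish 1 it was -0.91 (adjusted p = 0.24, edgeR), in a fit that keeps SW1 fish 2. The SW1 fish other than fish 2 were at 42.6 and 55.3 CPM, against 33.2 to 53.6 CPM in SW2.

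In the NCBI reference 9 beta-2-microglobulin clones were members, and their sum ranged from 39.4 CPM in SW2 fish 1 to 337 CPM in FMC fish 2. Clone ssal-plnb-513-183 accounted for most of that range: it had 142, 646 and 1 counts in FMC, 242, 226 and 1 in SW1 and 0, 0 and 176 in SW2. It was read in 2 FMC fish, 2 SW1 fish and 1 SW2 fish, and at 0 or 1 counts in the other 4, so presence did not follow diet. Clone ssal-evf-572-211 had 28, 30 and 19 counts in FMC, 0, 1 and 1 in SW1 and 0, 30 and 0 in SW2. All SW1 fish lay below all FMC fish, and SW2 fish 2 equalled the highest FMC fish in counts. Its unadjusted p in SW1 vs. FMC was 2.3e-05, with an adjusted p of 0.13 in edgeR, 0.0040 in DESeq2 and 0.021 in edgeR with no filter on low counts. Over the other alternatives and fish left out in turn, its adjusted p was between 0.104 and 1.0. The clone met the minimum counts of the main fit only through FMC fish, so no diet effect is read from these p-values. Clone ssal-evd-520-084 had 105 counts in FMC fish 1, 2 in SW2 fish 2 and 0 in the other 7.

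Clone ssal-eve-517-068 was the 1 beta-2-microglobulin clone in which all 3 fish of both seaweed diets lay above all 3 FMC fish. It had 59, 45 and 72 counts in FMC, 188, 126 and 107 in SW1 and 82, 117 and 146 in SW2, or 20.1, 19.9 and 30.0, 54.7, 58.1 and 35.0, and 34.0, 50.3 and 56.5 CPM. The log2 fold change was 1.05 ± 0.32 in SW1 vs. FMC and 1.04 ± 0.29 in SW2 vs. FMC (unadjusted p = 0.0097 and 0.0064), and neither passed adjustment (adjusted p = 1.00 and 0.86, edgeR). Clone ssal-rgb2-571-052, with 33 counts in all, had 5, 5 and 4 in FMC, 7, 7 and 3 in SW1 and 0, 2 and 0 in SW2 (unadjusted p = 0.032 vs. FMC and 0.031 vs. SW1, adjusted p = 0.86 and 0.80). It met the minimum counts of these fits only through FMC or SW1 fish, so no diet effect is read from these p-values. The remaining 4 clones had 25 to 97 counts over the 9 fish. The clones may be near-identical copies that share the reads of 1 light chain, though no sequences were compared. Neither a higher count of 1 clone nor the absence of another is read as the level of the protein's transcripts as a whole.

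**Figure D5:**
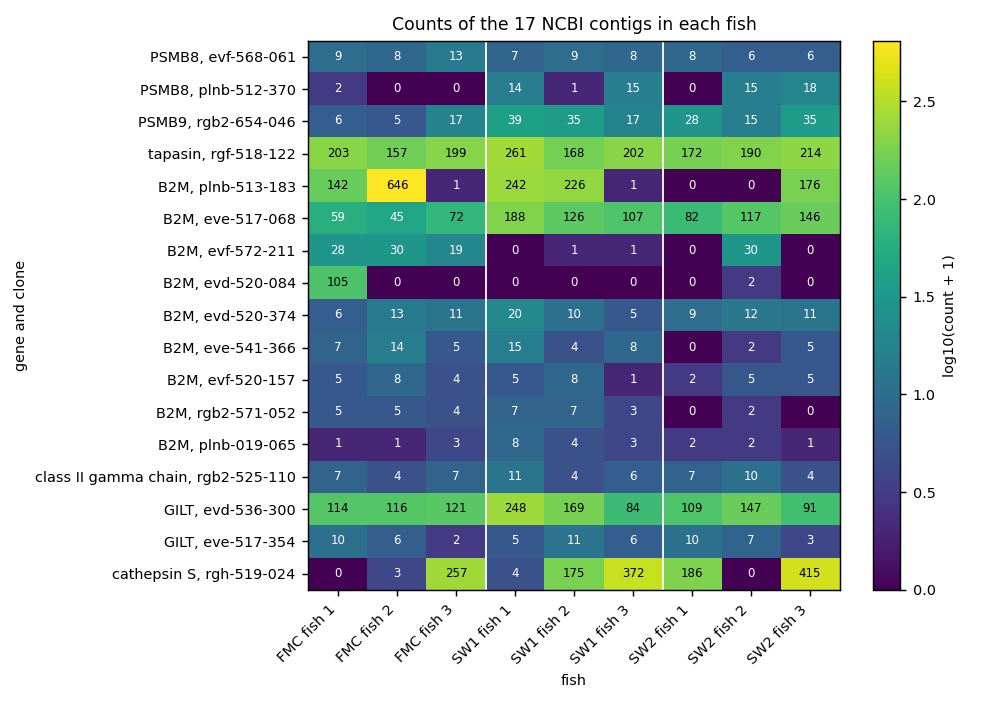
Counts of the 17 NCBI contigs in each fish, as read (numbers) and as log10(count + 1) (colour); rows are gene and clone, columns are fish, ordered by diet. The beta-2-microglobulin clones plnb-513-183, evf-572-211 and evd-520-084 and the cathepsin S clone change between 0 to 4 and 19 to 646 counts from fish to fish, while tapasin stays between 157 and 261.

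Over all NCBI members, 0 of 17 passed an adjusted p under 0.05 in edgeR in SW1 vs. FMC, 0 of 17 in SW2 vs. FMC and 0 of 16 in SW2 vs. SW1, where 0% of all NCBI contigs passed. DESeq2 called 1 of 17 in SW1 vs. FMC and 0 in the other comparisons. The called contig was clone ssal-evf-572-211, which met the minimum counts there only through FMC fish. At an unadjusted p under 0.05, 5 of 17 members passed in SW1 vs. FMC (3 higher and 2 lower) and 5 of 17 in SW2 vs. FMC (3 higher and 2 lower), against 1.81% and 5.68% of all contigs (1.05% up and 0.753% down in SW1 vs. FMC, 2.59% up and 3.1% down in SW2 vs. FMC), and 1 of 16 in SW2 vs. SW1, against 6.04%. The 2 sets of 5 share the FMC fish and 4 contigs. Clone ssal-evd-520-084, among the lower ones in both, and clone ssal-plnb-512-370, among the higher ones in both, reached the 20 counts of the member rule only through the fish in which they were read, so nothing about the members is read from these counts. Without FMC fish 2 and SW1 fish 1, the counts were 3 of 17, 3 of 16 and 0 of 16.

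Of the de novo members, 0 of 37 passed adjustment in edgeR or DESeq2 in any comparison, where edgeR called 0.00343%, 0% and 0.00229% of all contigs in SW1 vs. FMC, SW2 vs. FMC and SW2 vs. SW1. At an unadjusted p under 0.05, 1 of 37 passed in SW1 vs. FMC, 0 of 37 in SW2 vs. FMC and 3 of 37 in SW2 vs. SW1, against 1.68%, 6.02% and 6.6% of all contigs. All 3 in SW2 vs. SW1 were up, among all contigs 2.49% were up and 4.11% down there, and they were 2 minor ERAP2 contigs and a GILT contig of 49 counts. The GILT contig met the minimum counts of that fit only through SW2 fish. ERAP2 contigs 13270 and 53324, with 251 and 175 counts in all, were higher in every SW2 fish than in every SW1 fish in CPM, with log2 fold changes of 0.72 ± 0.32 and 0.94 ± 0.40 (adjusted p = 0.74 for both), and without the fish that stood apart their unadjusted p became 0.080 and 0.11.

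All-or-none contigs, with at least 50 counts in 1 fish and at most 2 in another, were 3 of the 17 NCBI members against 1.11% of the NCBI contigs with at least 20 counts, and 0 of the 37 de novo members against 0.271%. They were the beta-2-microglobulin clones ssal-plnb-513-183 and ssal-evd-520-084 and the cathepsin S clone. At a stricter limit, at least 100 counts in 1 fish and 0 in another, the same 3 remained. Among contigs with at least 200 counts, the highest fish had a median of 2.29 times the CPM of the lowest for the 33 de novo members, beside 2.31 times over all 40251 such contigs.

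On the class II side, the gamma chain carried the most counts of any member. Its de novo contig 1437 was at 799, 1011 and 1052 CPM in FMC, 1103, 867 and 728 CPM in SW1 and 801, 803 and 787 CPM in SW2. The 3 SW2 fish lay within an SD of 8.95 CPM, below FMC fish 2 and 3 and above SW1 fish 3, against SDs of 136 CPM in FMC and 190 CPM in SW1. The log2 fold change was -0.10 ± 0.29 in SW1 vs. FMC and -0.20 ± 0.18 in SW2 vs. FMC (adjusted p = 1.00 and 0.91, edgeR). The contigs described as H-2 class II gamma chain, a rodent name of the same protein, were at 1536, 2603 and 2615 CPM in FMC, 2671, 2106 and 1393 CPM in SW1 and 1633, 2084 and 1909 CPM in SW2. An NCBI entry under the H-2 name, which the study had listed as changed in these same fish, had 116 counts in SW2 fish 3 and 0 to 2 in each of the other 8. Over the 9 fish, the H-2 name was the most like contig 1437 of 8054 protein names with a mean of at least 10 CPM, with a Pearson r of 0.89 on the log2 scale. Next came phostensin (0.87), integrin alpha-8 (0.85), a zinc finger protein (0.85) and splicing factor, arginine/serine-rich 9 (0.84). The class I light chain on contig 2340 was most like variant surface antigen E (0.97), motile sperm domain-containing protein 2 (0.95), sodium- and chloride-dependent GABA transporter 3 (0.95), C19orf60 (0.94) and apoptosis facilitator Bcl-2-like protein 14 (0.93). None of these 5 is a member, and the r values describe 9 points that share libraries.

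GILT was the only gene in the plots whose SW2 fish lay apart from the FMC fish. The 6 de novo contigs summed to 244, 257 and 254 CPM in FMC, 205, 505 and 240 CPM in SW1 and 285, 339 and 261 CPM in SW2. The lowest SW2 fish lay just above the highest FMC fish, and the log2 fold change of 0.29 ± 0.18 did not pass (adjusted p = 0.87, edgeR). SW1 fish 2 was the highest of all and the other 2 SW1 fish were at or below the FMC fish. The larger contigs formed 2 pairs: contigs 2828 and 12117 followed each other over the 9 fish (r = 0.97), contig 12117 being at 119, 115 and 123 CPM in FMC, 80.1, 249 and 126 CPM in SW1 and 138, 166 and 129 CPM in SW2, and contigs 22036 and 22121 followed each other as well (r = 0.85). Between contigs 12117 and 22121 r was 0.30. The smaller contigs 22035 and 34268 fell in neither pair, with r of -0.22 and -0.03 with contig 12117 and of -0.55 and -0.71 with contig 22121. Contig 22121 had 244, 347 and 298 counts in FMC, 563, 423 and 258 in SW1 and 240, 244 and 232 in SW2. Another, contig 34268, matched a GILT precursor clone. The study had listed a GILT precursor among its changed contigs of these same fish, so its values are no independent evidence. It had 23, 0 and 5 counts in FMC, 1, 1 and 3 in SW1 and 6, 3 and 7 in SW2, with a log2 fold change of -2.45 ± 1.05 in SW1 vs. FMC and 1.79 ± 0.74 in SW2 vs. SW1 (unadjusted p = 0.039 and 0.031, adjusted p = 1.00 and 0.74). FMC fish 1 held most of the FMC counts. Contig 34268 met the minimum counts of these fits only through FMC or SW2 fish, so no diet effect is read from these p-values.

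Cathepsin S had 1 NCBI member, clone ssal-rgh-519-024, and its reads were nearly all-or-none. It had 0, 3 and 257 counts in FMC, 4, 175 and 372 in SW1 and 186, 0 and 415 in SW2. It was read in 1 FMC fish, 2 SW1 fish and 2 SW2 fish, so that every diet held fish of both kinds. A further 6 cathepsin S entries had fewer than 20 counts.

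Among the other genes around the pathway, no contig had an adjusted p under 0.05 in edgeR. Over all de novo contigs, 1.03% were higher and 0.649% lower in SW1 vs. FMC and 2.39% higher and 3.63% lower in SW2 vs. FMC at an unadjusted p under 0.05, with the shares for SW2 vs. SW1 given above. Of the lysosomal proteases that act on class II antigens (cathepsins B, D, H and L and legumain, 19 de novo contigs), 0 passed an unadjusted p under 0.05 in SW1 vs. FMC, 4 were higher and 1 lower in SW2 vs. FMC, and 2 were lower in SW2 vs. SW1. Their summed level was 1728, 1628 and 1765 CPM in FMC, 1865, 2182 and 1640 CPM in SW1 and 1929, 2424 and 2098 CPM in SW2, so that all SW2 fish lay above all FMC fish. The 5 NCBI contigs of the list summed to 291, 232 and 265 CPM in FMC, 279, 261 and 232 CPM in SW1 and 292, 336 and 320 CPM in SW2, also with all SW2 fish above all FMC fish, and 0 of the 5 passed an unadjusted p under 0.05 in any comparison. The macrophage and dendritic cell markers given above likewise lay higher in all SW2 fish than in all FMC fish, and their part in these levels was not tested. The protease contig lower in SW2 vs. FMC was legumain contig 10705, an asparaginyl protease, with 191, 275 and 181 counts in FMC, 430, 140 and 211 in SW1 and 100, 71 and 124 in SW2. The log2 fold change was -1.16 ± 0.30 vs. FMC and -1.13 ± 0.30 vs. SW1 (unadjusted p = 0.0028 and 0.0022, adjusted p = 0.82 and 0.66, edgeR), and the SW2 fish held the 3 lowest counts. The median log2 fold change of the list was 0.10, 0.38 and 0.26 in SW1 vs. FMC, SW2 vs. FMC and SW2 vs. SW1.

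From a list of interferon response genes, GBP contig 19076, an interferon-induced GTPase, had 473, 309 and 398 counts in FMC, 388, 501 and 576 in SW1 and 906, 637 and 523 in SW2, a log2 fold change of 0.84 ± 0.25 in SW2 vs. FMC (unadjusted p = 0.0064, adjusted p = 0.82). It was named for its unadjusted p under 0.01, so the level of the list as a whole is not read from it.

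Of the 11 standard subunit contigs, 0 passed an unadjusted p under 0.05 in any of the 3 de novo comparisons. Over all de novo contigs, 1.68%, 6.02% and 6.6% passed in SW1 vs. FMC, SW2 vs. FMC and SW2 vs. SW1. Of the 8 on the NCBI reference, 1 was higher in SW1 vs. FMC, 1 higher and 1 lower in SW2 vs. FMC and 1 lower in SW2 vs. SW1. The higher contig was in both cases the PSMB6 clone ssal-evd-514-227, which was listed only through seaweed fish. The NCBI contig of PSMB5 was at 68.6 CPM in FMC fish 1, 51.4 CPM in SW1 fish 3 and 0 CPM in all other fish. No diet effect is read from the higher or the lower calls of this list. Over all NCBI contigs, 1.05% were higher and 0.753% lower in SW1 vs. FMC, and 2.59% higher and 3.1% lower in SW2 vs. FMC. In SW2 vs. SW1, 492 of 22845 NCBI contigs were higher and 887 lower. Of the 11 de novo contigs of the PA28 activator and the proteasome maturation protein, 1 was lower in SW2 vs. FMC and 1 lower in SW2 vs. SW1. On the NCBI reference 2 of 5 contigs of the same list were higher in SW2 vs. FMC and 1 of 5 was higher in SW2 vs. SW1. The counts on both references are too small to read a direction from. These 5 contigs summed to 44.7, 58.4 and 32.1 CPM in FMC, 32.9, 5.07 and 57.6 CPM in SW1 and 61.8, 116 and 107 CPM in SW2, all SW2 fish above all others, whereas the de novo sums overlapped between all diets (139 to 399 CPM over the 9 fish). Of the 23 chaperone contigs, 1 was lower in SW1 vs. FMC and 2 were higher in SW2 vs. SW1. Of the 26 contigs of the regulators of these genes (class II transactivator, NLRC5 and RFX), 2 were higher and 1 lower in SW2 vs. FMC and 0 passed in the comparisons with SW1. Their summed level was 111.6 to 124.4 CPM in FMC, 96.7 to 110.6 CPM in SW1 and 102.5 to 115.4 CPM in SW2. All SW1 fish thus lay just below all FMC fish, and SW2 overlapped both other diets.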

How the data were processed

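The authors prepared 1 library per fish from total RNA (TruSeq) and deposited raw read counts for every contig in each fish, without normalization or pooling. Per the submitters' processing notes, reads were aligned with TopHat2 2.0.5, filtered with SAMtools 0.1.18 and counted with HTSeq 0.5.3p9, against both references. Descriptions are the best database match and often carry a gene name of another species. The deposited fold changes and p-values of the authors' own comparisons were not used. No genome build applies, and no sequences were used here.

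Each comparison was fitted in edgeR 4.0.16 to its 6 fish and to contigs whose counts summed to 10 or more (R 4.3.3; TMM, quasi-likelihood, adjusted p under 0.05 over all contigs). Summed protein names were tested likewise. DESeq2 1.42.0 and the other alternatives are given in the closing section, and the fits were tested on simulated data. The SE is the log2 fold change over the square root of F. Members and lists were chosen with earlier results of these data known. Named contigs were the main contig of each gene, members with an unadjusted p under 0.01 or all-or-none counts, and up to 3 contigs of each list with an unadjusted p under 0.01. Members at 0.01 to 0.05 were named after their values had been seen. One gene of the interferon response list is not reported here, and the counts of that list were left out with it.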

Additional observations from a re-analysis of the deposited data

How the results depend on the processing

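No member passed an adjusted p under 0.05 in any alternative except beta-2-microglobulin clone ssal-evf-572-211 in SW1 vs. FMC, with DESeq2 (log2 fold change -5.46) and with no filter on low counts (-5.20). As this clone met the minimum counts of the main fit only through FMC fish, no diet effect is read from it. In the order SW1 vs. FMC, SW2 vs. FMC and SW2 vs. SW1, edgeR called 3, 0 and 2 de novo contigs, 2, 0 and 1 summed names and 0, 0 and 0 NCBI contigs. DESeq2 called 27, 37 and 46 de novo contigs, 17, 23 and 32 names and 32, 27 and 26 NCBI contigs. With filterByExpr, SW1 vs. FMC had 0 contigs and 0 names and SW2 vs. SW1 had 1 contig. With all 9 fish in the fit, there was 1 contig in SW1 vs. FMC, 1 in SW2 vs. SW1 and 1 name in SW1 vs. FMC. With no filter, 8 and 7 NCBI contigs were called in SW1 vs. FMC and SW2 vs. SW1. Leaving out each fish in turn gave 0 to 7, 0 to 7 and 2 to 42 de novo contigs, 0 to 4, 0 to 5 and 1 to 10 names and 0 to 7, 0 to 5 and 0 to 7 NCBI contigs. Without FMC fish 2 and SW1 fish 1 together, chosen after seeing the data, there were 81, 7 and 42 de novo contigs, 40, 3 and 10 names and 13, 1 and 0 NCBI contigs. The cause of these differences was not tested.

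Members at an unadjusted p under 0.05 numbered 1, 0 and 3 (de novo) and 5, 5 and 1 (NCBI). With DESeq2 these became 0 de novo members in SW2 vs. SW1, 3 NCBI members in SW2 vs. FMC and 0 in SW2 vs. SW1. With filterByExpr there were 0 de novo members in SW1 vs. FMC and 3, 2 and 0 NCBI members. With all 9 fish there were 2 de novo members in SW1 vs. FMC and 2 NCBI members in SW2 vs. SW1, where no filter also gave 2. Leaving out each fish gave 0 to 2, 0 to 3 and 0 to 4 de novo and 3 to 6, 2 to 4 and 0 to 3 NCBI members. Without the 2 fish together there were 1, 0 and 1 de novo and 3, 3 and 0 NCBI members. Leaving out fish in turn, the log2 fold change in SW1 vs. FMC ranged from -0.53 to 0.038 for ERAP2 and from -0.16 to 0.62 for beta-2 microglobulin.

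Correlations of fish with the same sample number in the titles were -0.35 to 0.21, beside -0.43 to 0.51 for fish with different numbers. No pairing was seen in these values, and whether the numbers mark a shared block was not tested. With the number as a replicate block, edgeR called 0, 10 and 32 de novo contigs, 0, 6 and 12 names and, in SW1 vs. FMC, 1 NCBI contig, with 0 de novo members at an unadjusted p under 0.05 in SW1 vs. FMC.

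Scaled by total counts in place of TMM, the SW2 mean was 774 CPM for the gamma chain and 69.4 CPM for TAP1, against 797 and 71.4 CPM. The mean immunoproteasome ratio on NCBI contigs was 0.046, 0.076 and 0.075 in FMC, SW1 and SW2, with the fish of all diets overlapping. With 3 fish per diet and SEs of 0.18 to 0.41 on the log2 scale for the summed names, changes of that size were not detectable. Larger ones did not pass adjustment over all names either, such as ERAP1 at 0.56 ± 0.26 in SW2 vs. SW1 (adjusted p = 0.80, edgeR). Contigs with under 100 counts rest on few reads.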
